A study of Mus musculus with 13 samples.

Results

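Kupffer cells, the resident macrophages of the liver sinusoid, were described by 10 genes in single-cell RNA-seq libraries of mouse liver. The genes were Clec4f, Vsig4, Marco, Timd4, Cd5l, C6, Folr2, Nr1h3, Spic and Id3, out of 55353 gene symbols in the files. Their unique molecular identifiers (UMIs, 1 per captured transcript) were read in barcodes with at least 1500 UMIs in all and at least 5 UMIs of the complement genes C1qa, C1qb and C1qc together. These C1q-positive cells numbered 15221 of 95563 barcodes with at least 1500 UMIs, and the libraries held between 230 and 3286 of them. None of the 10 genes was used to choose the cells. Cells with at least 2 UMIs of Clec4f, the receptor most used to mark Kupffer cells, were 70.2% of the C1q-positive cells in untreated liver isolated with protocol A and 9.75% to 57.8% elsewhere, and under 50% of them in every library but D0 A and D3 A.

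All libraries came from livers of male C57BL/6J mice of 6 to 12 weeks. DDC, a porphyrinogenic compound that causes cholangitis, was fed as 0.1% of the chow for 0, 3, 5, 9, 19 or 25 days (D0 to D25), and the D0 mice received chow without it. Each day had 1 library from isolation protocol A and 1 from protocol B, and 1 more protocol B library, STOP, came from mice fed DDC for 18 days and then left to recover for 7 days. Protocol A sorted 7 kinds of cells in equal parts: live singlets, retinoid-autofluorescent cells, and cells positive for Epcam, for Pdpn, for Lyve-1, for Cd45, or for Cd31 without Lyve-1. Protocol B sorted live cells of a stellate cell preparation, Cd45+ Itgax+ Cd64- cells, Epcam+ cells and Cd3e+ Lyve-1- cells, so its leukocyte gate left out Cd64+ macrophages. The D19 B library carries day 18 in its group label, and STOP carries day 19. The number of mice behind a library was not given, so p-values measure the spread between libraries, which differ in day as well as in mouse.

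Kupffer cells settle in the liver before birth and renew themselves there, and monocytes can take up the empty places when they die. They sit in the sinusoid, where they strip bacteria, dying cells and aged erythrocytes from portal blood. Stellate cells, endothelial cells and hepatocytes hold them in that state through Notch, BMP and TGF-beta signals and LXR ligands, and Timd4 is known to be gained late by macrophages that enter the niche.

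The promoters of 4 of these genes are shown because 3 of them hold the same half-site of nuclear receptors, the class of factor to which the member Nr1h3 belongs, and the fourth, Id3, holds none of the motifs searched. Each is the 250 bases before a transcript start in RefSeq on GRCm38.p6, read 5′ to 3′ on the strand of the gene, with matches in capitals. Clec4f lies at chr6:83656117-83656366 (minus strand), Timd4 at chr11:46810549-46810798 (plus strand), C6 at chr15:4726960-4727209 (plus strand) and Id3 at chr4:136143572-136143821 (plus strand).
Clec4f: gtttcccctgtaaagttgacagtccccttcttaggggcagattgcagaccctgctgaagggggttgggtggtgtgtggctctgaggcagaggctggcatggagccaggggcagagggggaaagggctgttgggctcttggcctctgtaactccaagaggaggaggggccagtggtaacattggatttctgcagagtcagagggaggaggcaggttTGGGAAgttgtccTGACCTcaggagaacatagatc
Timd4: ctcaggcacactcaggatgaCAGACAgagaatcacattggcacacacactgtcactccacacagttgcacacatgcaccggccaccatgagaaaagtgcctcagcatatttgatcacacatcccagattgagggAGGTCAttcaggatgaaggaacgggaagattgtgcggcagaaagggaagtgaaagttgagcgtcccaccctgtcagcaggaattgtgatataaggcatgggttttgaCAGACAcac
C6: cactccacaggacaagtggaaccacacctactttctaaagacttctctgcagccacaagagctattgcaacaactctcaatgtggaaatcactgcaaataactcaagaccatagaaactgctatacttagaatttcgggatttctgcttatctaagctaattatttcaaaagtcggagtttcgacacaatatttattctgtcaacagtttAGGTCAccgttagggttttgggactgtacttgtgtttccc
Id3: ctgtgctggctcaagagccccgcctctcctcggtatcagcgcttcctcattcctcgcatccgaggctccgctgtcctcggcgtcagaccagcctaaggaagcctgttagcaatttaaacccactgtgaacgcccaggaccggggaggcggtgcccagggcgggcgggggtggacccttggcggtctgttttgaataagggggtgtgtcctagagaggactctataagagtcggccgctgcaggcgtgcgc

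The half-site, AGGTCA on either strand, was in 3 of 10 members (Clec4f, Timd4 and C6) and in 15.8% of 27025 genes with such a promoter. TGGGAA, the core bound by the Notch factor RBPJ, was in Clec4f, Marco and Nr1h3, so 3 of 10 against 24.1% of genes. CAGACA, a SMAD box, was in Timd4 alone among the members, 1 of 10 against 19.3%, and the PU.1 site GAGGAAGT was in 0 of 10 against 2.79%. Both strands were searched for every motif, and none of the matches in the members overlapped another motif. A match says only that the letters are there.

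The 13 libraries held between 29307190 UMIs (D3 B) and 108602421 (D25 A), and the C1q-positive cells carried macrophage transcripts in every library. Between 89.0% and 97.4% of them had at least 3 UMIs of the 6 macrophage markers together (Adgre1, Csf1r, Cd68, Fcgr1, Mertk and Cd63), and no marker was at 0 in any library. Their median depth ran from 5163 UMIs (D0 A) to 24889 (D3 B), and for that reason each cell was thinned at random to 1500 UMIs before a gene was called detected. Between 14.1% (D0 B) and 64.6% (D5 A) of the cells also had at least 3 UMIs of endothelial, T, B, cholangiocyte, neutrophil, stellate cell or fibroblast markers. Sinusoidal endothelial markers were in 45.1% to 62.9% of cells of protocol A, 15.0% to 28.8% of the protocol B libraries on diet and 2.65% of D0 B, where B cell (6.76%) and T cell markers (5.59%, against 10.4% to 15.7% with protocol B on diet) were more frequent. Lists not counted in that share were those of hepatocytes, with 3 UMIs in 40.0% (D0 B) to 83.9% (D3 B) of cells, and of dendritic cells, in 23.2% of D0 B, 15.5% to 27.4% of protocol B on diet and at most 10.7% of protocol A. Doublets were not removed. T cells of the same libraries, 35 to 3053 per library with median depths of 2274 to 7827 UMIs, gave the level that a cell type without Kupffer cell genes showed. The thinned share of T cells with a UMI was at most 0.185% for Timd4 and 0.295% for C6, and its median over libraries was 0.370% for Clec4f and 9.84% for Id3, a gene that T cells use themselves. For Marco (17.1%), Cd5l (14.3%), Vsig4 (11.4%) and Clec4f (8.57%) it was highest in the 35 T cells of D19 A. No pair of libraries shared more than 49 barcodes.

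Of the capture receptors, Clec4f and Vsig4 were found in most C1q-positive cells of untreated liver isolated with protocol A, and in a smaller share of them on diet. C1q-positive cells were 10.4% of barcodes with at least 1500 UMIs at D0 A. From D3 A to D25 A they were 14.3%, 11.01%, 22.3%, 36.7% and 22.1%. With protocol B they were 4.86% at D0 and 9.67% to 14.9% on diet. Those with at least 2 UMIs of Clec4f numbered 478 of 6525 barcodes at D0 A. From D3 A to D25 A it was 587 of 7076, 364 of 6774, 948 of 14764, 845 of 7883 and 566 of 10653. The part of the wider C1q-positive pool in the lower shares was not tested. Positions are those of protein-coding genes on GRCm38. Clec4f, a lectin receptor of Kupffer cells that binds galactose-type glycans (chr6:83644542-83656116), was detected in 68.1% of thinned cells at D0 A, 49.5% at D3 A, 42.8% at D5 A, 29.9% at D9 A, 26.8% at D19 A and 22.9% at D25 A. With protocol B the share was 10.3% at D0 and 8.26%, 12.1%, 10.7%, 10.8% and 8.65% from D3 to D25. Every protocol A library on diet was below D0 A, and the D0 value of protocol B was inside the range of its libraries on diet. Vsig4, the complement receptor that takes up C3b-coated bacteria (chrX:96247201-96293438), went from 63.4% at D0 A to between 22.9% and 43.3% on diet, and stood at 10.9% at D0 B against 8.93% to 15.5%.

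Timd4, a receptor for phosphatidylserine on dying cells (chr11:46810786-46844333), was highest at D0 with both protocols. It was detected in 32.7% of cells at D0 A, then in 17.9%, 18.2%, 8.79%, 10.9% and 6.82% from D3 A to D25 A. The D0 B share of 5.29% compared with 1.74%, 3.31%, 3.92%, 3.56% and 2.34%. Marco, a scavenger receptor for bacteria (chr1:120474538-120505024), behaved otherwise: 28.8% at D0 A stood among 24.9%, 23.1%, 17.4%, 30.5% and 21.7% on diet, and 1.47% at D0 B was below all 5 later protocol B libraries (6.04% to 8.51%).

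Of the secreted proteins, C6, a component of the membrane attack complex (chr15:4727067-4804045), followed Timd4. It was detected in 42.4% of cells at D0 A and in 21.3%, 25.6%, 13.2%, 11.3% and 9.03% from D3 A to D25 A, with 6.47% at D0 B against 1.74% to 5.01%. Cd5l, a secreted scavenger protein that macrophages make under LXR control (chr3:87357881-87371074), was the member found most often after Id3, in 37.6% against 45.8% of all thinned C1q-positive cells. Its share was 70.3% at D0 A and 39.4% to 55.7% on diet, but with protocol B it was 11.5% at D0 and 15.2% to 21.6% later, so the D0 library was the highest with protocol A and the lowest with protocol B. Folr2, a folate receptor of resident macrophages (chr7:101839988-101857190), was rarely detected at this depth, in at most 2.33% of thinned cells of any library. Of the thinned T cells, 1 of 48 at D9 A held it, and none in the other libraries. It was in 0 of 728 thinned cells at D25 B, whose exact 95% interval reached 0.505%. Without thinning it was in 3.17% of D19 B and 3.89% of STOP cells, so these shares depend on depth.

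**Figure D1:**
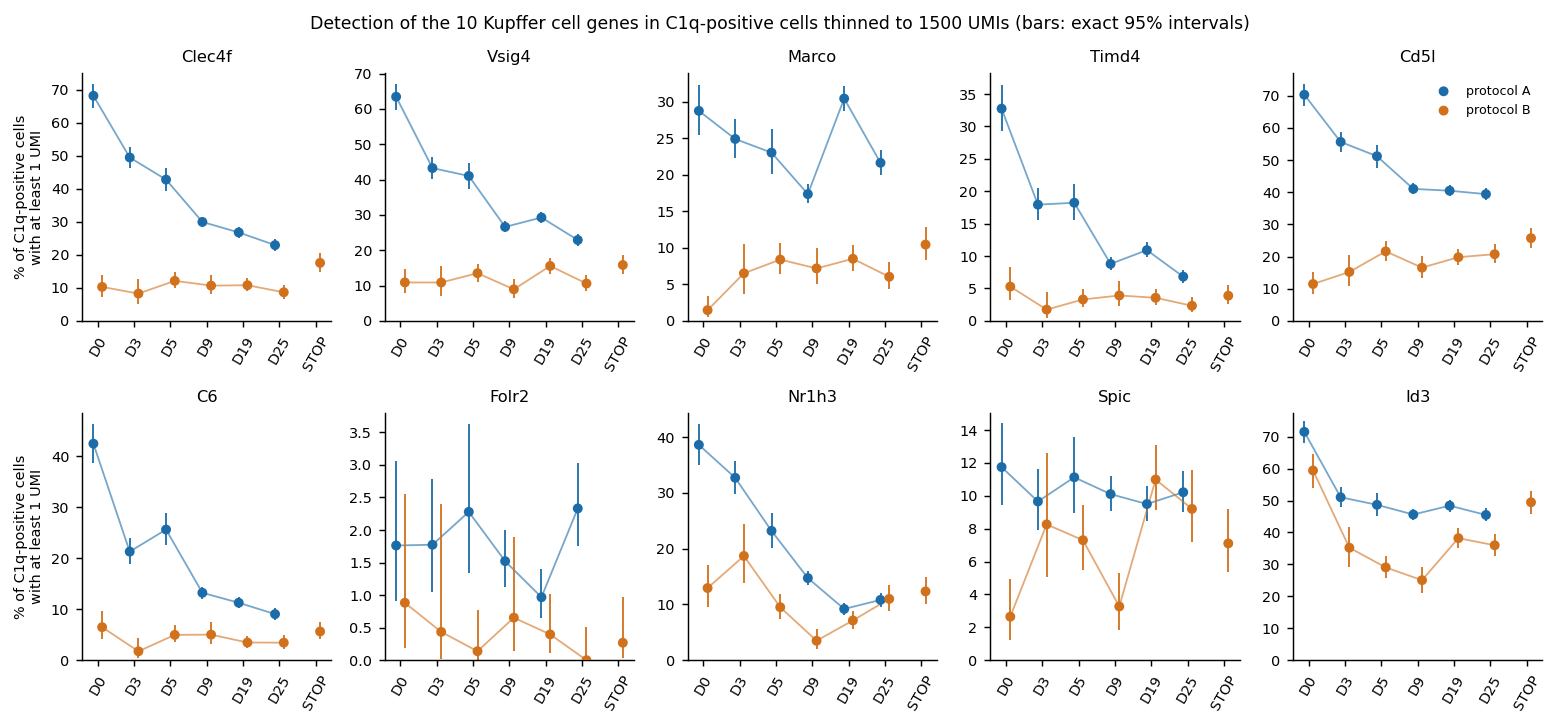
Share of C1q-positive cells with at least 1 UMI of each gene (y axis, percent, with its own scale in each panel) by day of diet (x axis), after every cell was thinned to 1500 UMIs. Blue points are protocol A libraries and orange points protocol B, 1 library a point with its exact 95% interval for counting error, and lines join the days of a protocol, with the STOP library at the right. Id3 stood at 71.5% at D0 and between 45.5% and 51.0% on diet with protocol A, and at 59.4% and between 25.1% and 38.2% with protocol B, whereas D0 was above all days on diet for Clec4f with protocol A alone.

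The regulators divided. Id3, an inhibitor of basic helix-loop-helix factors that Kupffer cells need (chr4:136143822-136145392), was detected in 71.5% of cells at D0 A and in 51.0%, 48.7%, 45.6%, 48.4% and 45.5% on diet. With protocol B it was in 59.4% at D0 and in 35.2%, 29.1%, 25.1%, 38.2% and 36.0%. All 10 libraries on diet lay below both D0 libraries, and the groups did not overlap for 6.04% of 8830 genes. Nr1h3, which encodes the oxysterol receptor LXR alpha (chr2:91184061-91202829), was detected with protocol A in 38.6% of cells at D0, 32.7% at D3, 23.2% at D5, 14.7% at D9, 9.19% at D19 and 10.8% at D25. With protocol B it was 12.9% at D0, 18.7% at D3, 9.504% at D5, 3.49% at D9, 7.13% at D19 and 10.99% at D25, so D0 and D3 held the highest shares with both protocols. Spic, a factor induced by heme in iron-recycling macrophages (chr10:88675269-88683023), showed no such order. Its shares ran from 9.499% to 11.7% with protocol A, D0 included, and from 2.65% at D0 to between 3.27% and 10.99% with protocol B.

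In exact two-sided permutation tests of libraries within protocol (36 arrangements, smallest p 0.0278), 3 of the 10 members differed between D0 and diet. The mean share over libraries was 65.5% ± 8.56 (SD, n = 2) at D0 and 40.3% ± 8.90 (n = 10) on diet for Id3 (exact p = 0.0278). It was 24.5% and 9.90% for C6 and 19.02% and 7.76% for Timd4, both at an exact p of 0.0278, in each case because D0 was the highest library of both protocols. With protocol B the lead of D0 was small for both genes, and it was read from a single random draw of the thinning. At the same threshold 8.99% of 8830 genes were called. Nr1h3 was 11.7 percentage points lower on diet (exact p = 0.0556), Vsig4 14.9 points lower (exact p = 0.0833) and Clec4f 17.0 points lower (exact p = 0.111), and the other 4 members had exact p-values between 0.250 and 0.972. All p-values are raw, over 10 members. Without thinning the Id3 difference was -4.98 points (exact p = 0.444). The C6 call was lost in cells thinned to 3000 UMIs (-15.7 points, exact p = 0.0556) and in cells with at least 10 C1q UMIs (-13.5 points, exact p = 0.0833). Within a protocol, which is what either D0 library left out amounts to, the smallest p allowed was 0.167, so that no member could pass. With protocol B alone the differences were -26.7 points for Id3, -2.75 for C6, -2.32 for Timd4, -2.98 for Nr1h3, -0.193 for Clec4f and 1.002 for Vsig4. With protocol A alone they were -23.7, -26.4, -20.2, -20.5, -33.8 and -30.8 points in the same order. Genes of Cx3cr1-type macrophages and dendritic cells (Cx3cr1, Cd207, Cd74, H2-Ab1, Mgl2, Ccr2 and Cd209f) made up 62867 CPM (UMIs of a gene scaled to a common total per library) of the D0 B cells against 2495 to 20005 in the other libraries, and their part in the D0 B shares was not tested.

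Summed over the C1q-positive cells of a library and fitted with edgeR for all genes, with protocol as a covariate, Id3 was the member that passed. Its level was 1518 CPM at D0 A and 1329 at D0 B, and on diet between 582 and 691 with protocol A and between 270.0 and 510.5 with protocol B, without overlap. The log2 fold change was -1.58 (SE 0.26, edgeR adjusted p = 0.0132). So 1 of 10 members was called, while 2.58% of 14698 genes were. In such sums fewer Kupffer cells among the C1q-positive cells and less RNA per cell cannot be told apart. Without D0 B the Id3 change was -0.98 and no member passed (edgeR adjusted p = 0.101 for Id3), and without D3 B C6 passed too (-1.17, 0.0398). The next members were C6 (-1.31, adjusted p = 0.0841), Nr1h3 (-0.95, 0.107), Timd4 (-1.19, 0.109) and Clec4f (-0.92, 0.247), and Marco was at 0.99 (0.467), all log2 fold changes with edgeR adjusted p-values. The median over the 10 members was -0.79, beside 0.06 over all genes. Markers of other cell types moved in the same sums: all 8 sinusoidal endothelial markers had positive log2 fold changes on diet (3 passed in edgeR, median 1.60), and 3 of 3 B cell markers tested were lower (median -5.14). Of the hepatocyte markers 1 of 8 was lower (median -0.87) and of the neutrophil markers 1 of 5 (median -1.83), while 0 of 5 stellate cell and fibroblast markers tested passed in edgeR (0 at an unadjusted p under 0.05, median -2.21). The endothelial markers summed to 1935 CPM at D0 A and 96.2 at D0 B, and on diet to between 1343 and 4420 with protocol A and between 525 and 801 with protocol B. Without the cells that held markers of another type Id3 was at -1.63 (edgeR adjusted p = 0.00230) and was still the 1 member called. DESeq2 called 4 members, Id3, C6, Nr1h3 and Timd4. Fitted on protocol A alone, C6 passed (-1.48, edgeR adjusted p = 0.0454) and Id3 did not (-0.97, 0.108). In a fit with an interaction, the Id3 change was -0.90 within protocol A and -2.05 within protocol B, each against 1 D0 library. The difference between protocols did not pass for any member by edgeR (0 of 10, with 1.71% of genes called). Id3 was the 1 member with an unadjusted p under 0.05 for that difference (-1.15 in log2, protocol B minus A).

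From onset (D3 and D5, 4 libraries) to progression (D9, D19 and D25, 6 libraries), 1 of 10 members differed in its share at the threshold of 0.05, about as often as the 8.90% of all genes that did. Nr1h3 went from 21.0% ± 9.65 (SD, n = 4) to 9.39% ± 3.82 (n = 6), with an exact permutation p of 0.0200 over 100 arrangements. The exact p was 0.05 or 0.0750 without D3 A, D3 B, D5 A, D9 A, D19 A or D25 A. Clec4f was 9.86 points lower (exact p = 0.05), which did not pass. Clec4f, Vsig4 and Timd4 passed as well when thinned to 3000 UMIs, and were among the members that passed without thinning (exact p between 0.02 and 0.04). Clec4f and Timd4 also passed without cells that held markers of another type (exact p of 0.02 and 0.01). The share of all genes that passed was not computed for these 3 settings. Without thinning a deeper cell also has more chances to show a gene, so these calls are not read as particular to the members. In the edgeR fit of the sums 0 of 10 members passed, as did 0.0204% of genes, and 1 of the members had an unadjusted p under 0.05. The Nr1h3 log2 fold change was -1.12 (SE 0.25, edgeR adjusted p = 0.203), DESeq2 called it (adjusted p = 0.00730), and Marco stood at 1.09 (0.436). Markers of other cell types moved in these sums as well, none past the threshold in edgeR: 5 of 5 stellate cell and fibroblast markers tested (median 2.67) and 5 of 5 neutrophil markers (1.53) had positive log2 fold changes and 6 of 6 dendritic cell markers negative ones (-1.44), with 3, 3 and 4 of them at an unadjusted p under 0.05.

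The other members were next read in the cells with Clec4f, a class that rests on a member and leaves out cells in which Clec4f was not found. At least 2 UMIs of Clec4f, before thinning, were found in 4360 cells (Clec4f-positive below), 0 UMIs in 9622, and the rest had 1. Timd4 was detected after thinning in 44.4% of the Clec4f-positive cells at D0 A (212 of 478) and in 43.2% at D0 B (16 of 37). On diet it was in 30.3% at D3 A, 34.9% at D5 A, 27.2% at D9 A, 35.3% at D19 A and 26.0% at D25 A, and in 13.04% (3 of 23 cells), 21.3%, 30.8%, 25.2% and 16.9% of the protocol B libraries in the same order. Every library on diet was below both D0 libraries, and the protocols, which differed so much over all C1q-positive cells, started at about the same share. How many of all genes fell without overlap, or passed the permutation test below, was not computed for this class.

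The mean went from 43.8% ± 0.784 (SD, n = 2) to 26.1% ± 7.31 (n = 10), a difference of -17.7 points (exact permutation p = 0.0278, the smallest the 36 arrangements allow). From onset to progression it differed by 2.00 points (exact p = 0.590). Without D0 A or D0 B the difference was -21.8 or -13.6 points, with the smallest p allowed, 0.167. Read without thinning, where a deeper cell has more chances to show Timd4, the difference was -15.0 points with an exact p of 0.167. Without the cells that held markers of another type it was -15.0 points (exact p = 0.0667 over 30 arrangements).

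When Clec4f itself had to be read in the thinned cell, which makes the class independent of depth, 5 of the other 9 members differed between D0 and diet in an exact permutation test (30 arrangements, smallest p 0.0333, D3 B left out with 19 such cells). At this threshold 12.2% of 8663 genes were called, 851 of them lower on diet and 209 higher, so a fall was the more frequent direction among all genes. Timd4 was in 44.8% and 42.9% of such cells at D0 A and D0 B, and in 19.05% to 38.2% on diet. C6 was in 59.7% and 60% at D0 and in 29.4% to 55.2% on diet. Nr1h3 was in 50.2% and 54.3% against 10.2% to 44.2%, and Id3 in 75.2% and 82.9% against 37.5% to 56.9%. None of these ranges overlapped, as in 10.2% of all genes, and each exact p was 0.0333. Marco was the 1 member to go up, from 39.4% and 14.3% at D0 to between 43.6% and 80.3% (exact p = 0.0333), with the highest shares at D19 A (80.3%), D19 B (67.0%) and D25 A (65.1%). Free RNA of D19 A was also rich in Marco, at 1553 CPM of its barcodes with under 100 UMIs against 1.85 to 407 CPM in the others, and its part in the D19 A share was not tested. Vsig4 (87.7% and 91.4% against 67.6% to 93.6%), Cd5l, Spic and Folr2 had overlapping ranges and exact p-values between 0.0667 and 0.833. From onset to progression 0 of 9 passed at 0.05 by this test (2.30% of genes did). Id3 came nearest, with 45.7% and 49.6% (exact p = 0.0750), and Nr1h3 stood at 37.3% and 21.7% (exact p = 0.100).

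**Figure D2:**
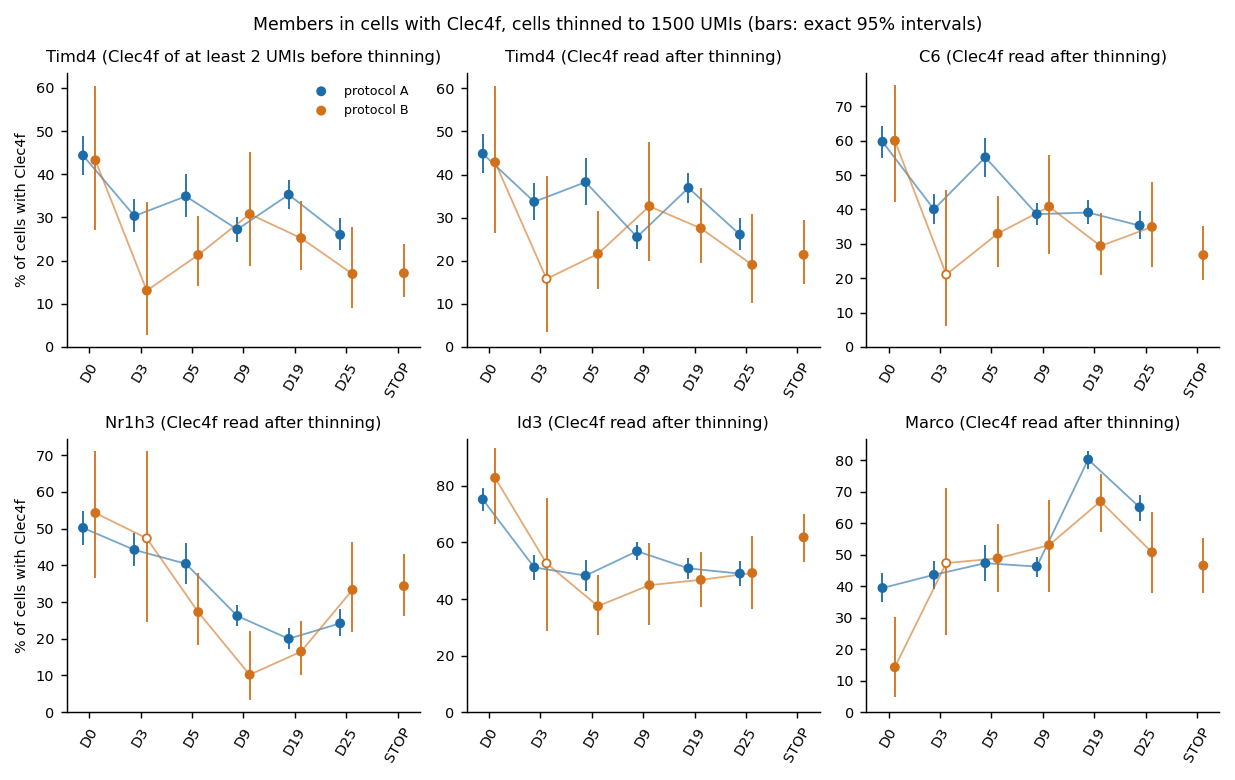
Share of cells with Clec4f that also held Timd4, C6, Nr1h3, Id3 or Marco (y axis, percent) by day of diet (x axis), blue for protocol A and orange for protocol B, with exact 95% intervals for counting error. The first panel takes cells with at least 2 UMIs of Clec4f before thinning and the others take cells in which Clec4f was read after thinning to 1500 UMIs; the open point is D3 B with 19 cells. Timd4, C6, Nr1h3 and Id3 were highest in both D0 libraries, and Marco was lowest there.

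The summed counts of the Clec4f-positive cells gave 2 members past the threshold, beside 1.13% of 11642 genes. Id3 was at 1388 CPM (scaled by edgeR) at D0 A and 1106 at D0 B, and between 496 and 868 in all 10 libraries on diet (log2 fold change -0.92, SE 0.19, edgeR adjusted p = 0.0342). Nr1h3 was at 529 and 399 CPM against 119 to 478 on diet, where only D3 A (478) exceeded D0 B (log2 fold change -1.03, SE 0.23, edgeR adjusted p = 0.0467). Both calls were lost in a fit without D0 A, D0 B, D3 B, D5 A, D5 B, D9 B or D25 A, and that of Nr1h3 also without D19 A or D19 B, while the fold changes stayed between -1.00 and -0.89 for Id3 and between -1.16 and -0.97 for Nr1h3. Without D0 A they were -0.95 (edgeR adjusted p = 0.248) and -1.13 (0.280). Timd4 stood at -0.78 (adjusted p = 0.114), C6 at -0.97 (0.0904) and Marco at 1.48 (0.191). The median of the 9 members was -0.21 and that of all genes 0.04. In these cells too all 8 sinusoidal endothelial markers had positive log2 fold changes on diet (2 passed in edgeR, 7 at an unadjusted p under 0.05, median 1.35). Of the hepatocyte markers 1 of 8 was lower (median -1.09) and of the B cell markers 1 of 2 tested (median -2.41). Of 5 stellate cell and fibroblast markers tested 0 passed (3 at an unadjusted p under 0.05, median -2.60). No cholangiocyte, T cell, neutrophil or dendritic cell marker passed in edgeR. Without the cells that held markers of another type Id3 was at -0.93 (edgeR adjusted p = 0.0406), the Nr1h3 call was lost (-0.75, 0.107) and Marco passed (1.91, 0.0223). Within protocol A and protocol B, Id3 changed by -0.92 and -0.86 and Nr1h3 by -1.01 and -1.10 (edgeR adjusted p between 0.216 and 0.421), and the difference between protocols passed for no member (0 of 10 by edgeR, 1 at an unadjusted p under 0.05, and 0.00% of genes called). From onset to progression 0 of 9 members passed (2 at an unadjusted p under 0.05, 1 with DESeq2, and 0.0687% of genes).

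Set against the Clec4f-negative cells of the same library, Clec4f-positive cells held more of all 9 other members, and 34.5% of 14494 genes differed. Over the 13 libraries C6 was at 366 ± 157 CPM (mean and SD) in Clec4f-positive and at 3.59 ± 4.24 in Clec4f-negative cells (log2 fold change 6.91, SE 0.22, edgeR adjusted p = 8.59e-15). Marco stood at 1511 against 25.5 CPM (log2 6.54), Timd4 at 258 against 4.46 (6.04), Vsig4 at 1532 against 48.3 (5.39), Cd5l at 3622 against 228 (4.43) and Folr2 at 19.95 against 1.29 (4.04). For each of these the 13 libraries all had the higher level in the Clec4f-positive cells.

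The regulators were much less bound to Clec4f. Nr1h3 was at 255 against 73.7 CPM (log2 fold change 1.85, edgeR adjusted p = 1.39e-10) and Spic at 116 against 53.0 (1.12, 3.13e-06), each higher in 13 of 13 libraries. Id3 was at 745 ± 240.0 against 641 ± 374 CPM, higher in 11 of 13 libraries (0.38, SE 0.11, adjusted p = 0.0115). Clec4f-negative cells kept most of the Id3 level and little of C6, Timd4 or Marco.

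**Figure D3:**
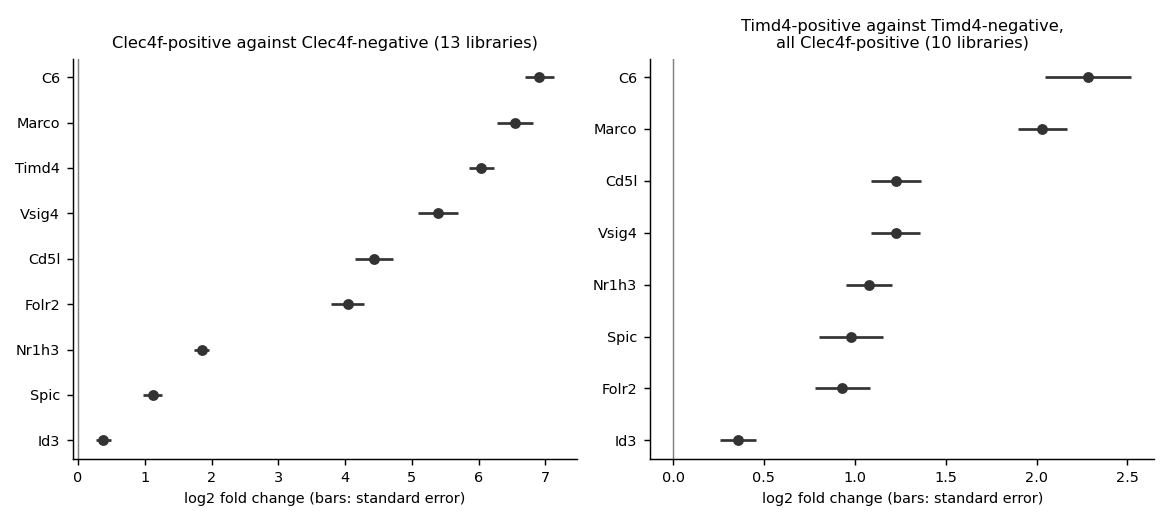
Log2 fold change (x axis, with its standard error as a bar) of each member between cell classes of the same library, by edgeR with library as a block. Left, Clec4f-positive against Clec4f-negative cells in 13 libraries, from 6.91 for C6 to 0.38 for Id3. Right, Timd4-positive against Timd4-negative cells, all Clec4f-positive, in 10 libraries, from 2.28 for C6 to 0.36 for Id3.

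Among Clec4f-positive cells, those with Timd4 held more of the other 8 members than those without it in the same library, over 10 libraries with at least 20 cells of both classes, where 20.9% of 10847 genes were called. C6 was at 521 ± 139 CPM with Timd4 and 129 ± 105 without (log2 fold change 2.28, SE 0.24, edgeR adjusted p = 2.18e-05), and Marco at 2449 against 545 (2.03, 2.62e-07), both in 10 of 10 libraries. Cd5l (1.23), Vsig4 (1.22), Nr1h3 (1.08), Spic (0.98) and Folr2 (0.93) followed, and Id3 came last at 0.36 (edgeR adjusted p = 0.0150, 8 of 10 libraries). The calls of Folr2 and Id3 were lost without cells that held markers of another type (edgeR adjusted p = 0.252 and 0.640) and in cells with at least 5 UMIs of Clec4f (0.0710 and 0.156). The Timd4-positive cells were also deeper in 9 of those 10 libraries, for example 6425.5 against 2879.5 UMIs in the median at D0 A, and STOP was the exception with 10135 against 12269.5. Of the 6 macrophage markers 5 were higher in Timd4-positive cells, from Adgre1 (1.20) to Mertk (0.39), and Cd63 was lower (-0.30). The C1q genes, which had chosen the cells, stood at 0.82 (C1qa), 0.69 (C1qb) and 0.90 (C1qc), and all 8 sinusoidal endothelial markers were lower in Timd4-positive cells, with a median of -0.94. At D3 A, for example, 82.4% of the Timd4-negative and 53.7% of the Timd4-positive cells held endothelial markers, with a median of 17.5 and 150 C1q UMIs. Without the cells that held markers of another type the log2 fold changes were smaller, at 2.002 for C6, 1.42 for Marco, 0.95 for Vsig4, 0.79 for Cd5l, 0.49 for Spic and 0.41 for Nr1h3, and all 6 were still called.

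The odds of finding Timd4 were also read after thinning to 1500 UMIs, in cells that were Clec4f-positive before thinning. Genes were thus read at equal depth, but the cells were not chosen at equal depth. Among the members that do not define the class, the odds ratio pooled over libraries was highest for Cd5l (5.90). Vsig4 (4.09), C6 (2.90), Marco (2.72), Nr1h3 (1.82) and Spic (1.62) followed, and Clec4f itself stood at 4.82. For Id3 the ratio was 1.03, above 1 in 9 of 13 libraries, so at equal depth cells with and without Timd4 had Id3 about equally often. Outside the members and the C1q genes, Ctsb (6.15), Apoe (4.34), Wfdc17 (3.66), Apoc1 (3.50) and Ftl1 (2.92) were most like Timd4 by this measure among 3903 genes. Ctsb, Apoe and Ftl1 were found in 97.5%, 99.5% and 97.7% of these cells, so their ratios rest on the few cells without them.

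Detection in the same thinned C1q-positive cell tied 6 members most closely. The 15 pairs among Clec4f, Vsig4, Marco, Timd4, Cd5l and C6 had odds ratios between 9.92 (Marco and C6) and 35.8 (Cd5l and C6), with a median of 20.8, and every one was above 1 in all 13 libraries. Over all 45 pairs the median was 3.83. Pairs with Folr2 lay between 1.21 and 12.3 (with Cd5l), the highest of them inside the range of those 15, and none was above 1 in every library. Pairs with Nr1h3 lay between 1.42 and 4.90, those with Spic between 1.41 and 2.26 and those with Id3 between 1.21 and 1.46. These ratios are descriptions with no test, since cells of a library share its free RNA. Without the cells that held markers of another type the median of the 15 pairs was 42.4.

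**Figure D4:**
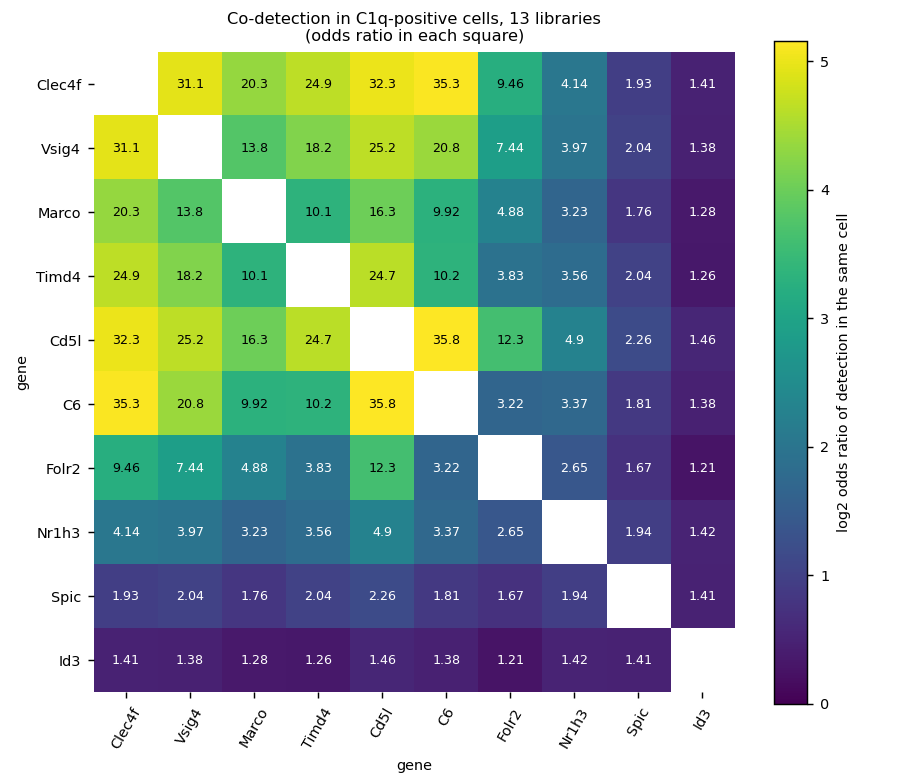
Odds ratio of detecting 2 genes in the same C1q-positive cell thinned to 1500 UMIs, pooled over 13 libraries by the Mantel-Haenszel method, printed in each square and coloured on a log2 scale. Both axes list the 10 genes; the upper left block of Clec4f, Vsig4, Marco, Timd4, Cd5l and C6 holds ratios from 9.92 to 35.8, and the Id3 row stays at or below 1.46.

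At least 3 of those 6 genes were detected in 65.1% of the cells at D0 A, 44.2% at D3 A, 40.2% at D5 A, 24.6% at D9 A, 26.0% at D19 A and 19.97% at D25 A. With protocol B the share lay between 7.69% and 10.8% at D0 and on diet, and at 13.3% in STOP. Cells in which Clec4f and Timd4 were both found before thinning were 50.5% of C1q-positive cells at D0 A and 14.8% at D25 A, while cells with at least 2 UMIs of Clec4f and none of Timd4 were 19.7% and 9.20%. With protocol B the cells with both were 8.82% at D0 and 4.35%, 8.95%, 8.50%, 7.62% and 3.71% from D3 to D25, and those with Clec4f and no Timd4 2.06% and 5.65%, 5.92%, 2.83%, 4.55% and 6.04%, with no steady order of days. Cells with Timd4 and no Clec4f were 0.689% to 3.91% of C1q-positive cells over the 13 libraries. With protocol A they numbered at most 58 beside 540 cells with both (D9 A), but 9 beside 10 at D3 B and 21 beside 27 at D25 B.

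Outside the members, Cd163, the haptoglobin-hemoglobin receptor, was most like Clec4f among 3855 genes (odds ratio 21.6). Paqr9 (18.03), Epb41l3 (14.9), Apoc1 (13.3), Apoe (11.1), Fabp7 (10.5), the iron exporter Slc40a1 (8.87), Colec12 (8.54), Scd1 (7.64) and Il18bp (6.92) came next. Nr1h3 ranked 29, Spic 131 and Id3 344 of the 3855 genes. At the other end stood Cx3cr1 (0.121), Myo5a (0.134) and Ccr2 (0.147). Cd207, listed with Cx3cr1 and Ccr2 among the genes of Cx3cr1-type macrophages and dendritic cells, went the other way (4.86, rank 22). Of the 7 genes of that list, 5 were lower and 1 higher in Clec4f-positive than in Clec4f-negative cells by edgeR, where 34.5% of 14494 genes were called.

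Other Kupffer cell genes followed Clec4f from cell to cell. Of 20 such genes 19 were higher in Clec4f-positive cells (median log2 fold change 2.51, against -0.04 over all genes), led by Kcna2 (5.98), Pcolce2 (5.72), Paqr9 (5.15) and Cd163 (4.99), and 1 was lower. Between these classes 34.5% of 14494 genes were called. The list was chosen with earlier results of these data known, so the count is a description and not independent support. Between D0 and diet in C1q-positive cells, Kcna2 was lower (-1.35) and Vcam1 higher (0.74), and the other 18 did not pass (median -0.07, all genes 0.06), so 2 of 20 were called beside 2.58% of all genes. In Clec4f-positive cells 0 of 20 passed in edgeR, with 8 at an unadjusted p under 0.05. Of 15 further regulators, 0 passed between D0 and diet in either set of cells (2 and 2 at an unadjusted p under 0.05). Clec4f-positive cells held more of 5 of them, the LXR partner Rxra (1.49) and Tfec (0.97) among them, and less of 5, Runx3 (-1.998) and Rbpj (-0.88) among them. These calls too stand beside the 34.5% of all genes called between the classes.

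LXR target genes were counted beside Nr1h3. Of 9, only Lpcat3 was higher on diet in C1q-positive cells (0.98, edgeR adjusted p = 0.0372), and the median was 0.83 while Nr1h3 stood at -0.95. In Clec4f-positive cells 0 of 9 passed (5 at an unadjusted p under 0.05), with a median of 0.64. Of 8 SMAD and BMP target genes, the group to which Id3 belongs, Eng was higher (1.27) in C1q-positive cells and the others did not pass, with a median of -0.28. All 8 sinusoidal endothelial markers had positive log2 fold changes in the same sums (median 1.60), and their part in the Eng change was not tested. Over all genes, 2.58% were called in C1q-positive cells and 1.13% in Clec4f-positive cells. Of the terminal complement genes other than C6, 4 had enough counts to be tested, and 0 of 4 passed by edgeR (3 at an unadjusted p under 0.05, median -1.53). The genes of that list found in the files together made up at most 23.5 CPM of C1q-positive cells.

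Of the 12 lipid-associated macrophage genes, 7 were higher on diet in C1q-positive cells, where 2.58% of 14698 genes were called. Gpnmb (4.83), Ctsd (2.46), the lipid receptor Trem2 (2.37) and Cd63 (1.93) led them. The median of the 12 was 1.87 against 0.06 over all genes. In Clec4f-positive cells 6 of 12 were higher, beside 1.13% of 11642 genes called, led by Gpnmb (5.07), Mmp12 (4.65), Trem2 (3.25) and Lgals3 (2.03). Yet 9 of the 12 were lower in Clec4f-positive than in Clec4f-negative cells, with Fabp5 (-2.33), Spp1 (-2.10), Gpnmb (-1.90) and Cd63 (-1.66) first, and 8 of 10 monocyte genes were lower as well, led by F13a1 (-4.09). Between these classes 34.5% of 14494 genes were called. The part of doublets and of free RNA in the rises on diet was not tested. Of 13 efferocytosis and scavenger receptors, Cd36 rose in C1q-positive cells (1.64) and in Clec4f-positive cells (1.90). All 8 sinusoidal endothelial markers had positive log2 fold changes in both sets of cells as well (medians 1.60 and 1.35). Their part in the Cd36 change was not tested.

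After 7 days of recovery, the STOP library was set beside D19 B, the protocol B library nearest in diet time. Each is 1 library, so there is no test, and the exact 95% intervals cover counting error alone. The thinned shares of 4 of 10 members had intervals apart, all higher in STOP, where 20.1% of 8830 genes had intervals apart, 1288 of them higher in STOP and 489 lower. Without thinning Vsig4 (26.3% against 19.3%) and Spic (23.2% against 35.8%) had intervals apart as well, and Nr1h3 did not. Clec4f was detected in 17.6% of STOP and 10.8% of D19 B cells, Cd5l in 25.7% and 19.8%, Nr1h3 in 12.3% and 7.13%, and Id3 in 49.5% and 38.2%. Timd4, with 3.89% and 3.56%, was not among them, nor were Vsig4 (15.8% and 15.5%), Marco (10.5% and 8.51%), C6 (5.63% and 3.47%), Spic (7.10% and 10.99%) and Folr2 (0.268% and 0.396%).

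Within cells holding Clec4f, Timd4 was in 17.1% of the Clec4f-positive cells of STOP (27 of 158; interval 11.6% to 23.9%) and in 25.2% of those of D19 B (17.8% to 33.8%), which overlap, and D0 B stood at 43.2% (27.1% to 60.5%). Nr1h3 was in 29.1% of STOP and 13.8% of D19 B Clec4f-positive cells, with intervals apart (over all C1q-positive cells without thinning, 39.5% and 37.7%, they overlapped), and Vsig4 in 58.2% and 86.2%, also apart. The intervals of the other members overlapped in Clec4f-positive cells. The share of all genes with intervals apart in this class was not computed. In CPM over all C1q-positive cells, STOP was lower than D19 B for Marco (181 against 378), Vsig4 (201 against 388), Spic (40.7 against 85.6) and Timd4 (28.6 against 34.9), higher for Nr1h3 (88.2 against 56.6) and Id3 (597 against 510.5), and its intervals overlapped for Clec4f (314 against 311), Cd5l (657 against 662), C6 and Folr2. These 6 of 10 members with CPM intervals apart stand beside 59.1% of 8830 genes. Sinusoidal endothelial markers were in 49.1% of STOP and 15.0% of D19 B cells, and their part in these shares was not tested.

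**Figure D5:**
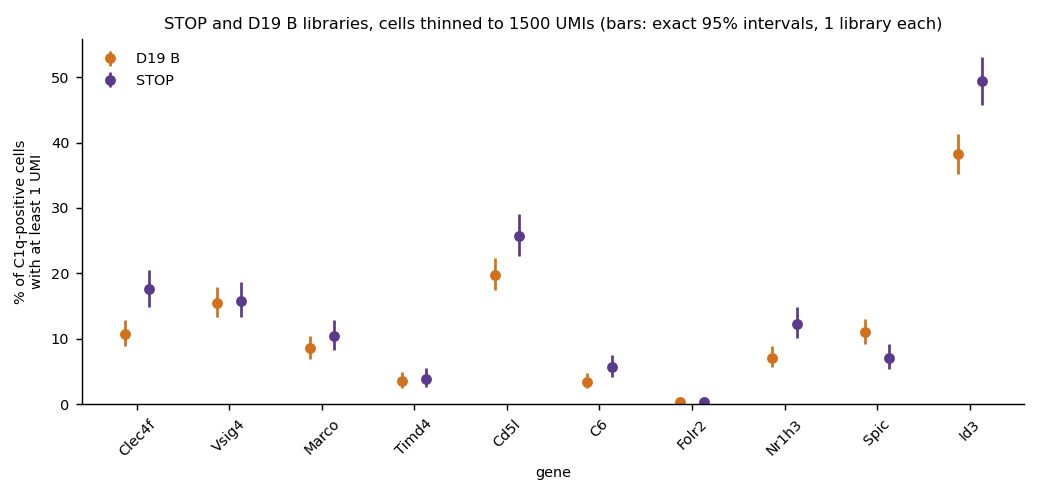
Share of C1q-positive cells with at least 1 UMI of each gene (y axis, percent; x axis, gene) in the STOP library (purple) and the D19 B library (orange), cells thinned to 1500 UMIs, with exact 95% intervals for counting error and 1 library each. Clec4f, Cd5l, Nr1h3 and Id3 have intervals apart, with STOP higher, and Timd4 stands at 3.89% and 3.56%.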

How the data were processed

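Single-cell RNA-seq of mouse liver was analysed in 13 libraries from Chromium 3′ v3.1 kits, single index for protocol A and dual index for protocol B. The values deposited by the authors are unfiltered UMI counts of each gene in each barcode, without normalization, and the submitters' processing notes name kallisto and GRCm38. The 10 members and all gene lists were chosen with earlier results of these data known, and 1 gene of the lists is not reported here. Barcodes with at least 1500 UMIs and at least 5 C1q UMIs were kept, doublets were not removed, and detection was read in cells thinned to 1500 UMIs. Clec4f-positive cells had at least 2 UMIs, Timd4-positive cells at least 1, cells of another type at least 3 UMIs of its markers, and T cells at least 3 Cd3 UMIs with under 5 C1q UMIs. Libraries with under 20 cells of a class were left out of its comparison.

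Counts were summed per library and fitted with edgeR 4.0.16 (quasi-likelihood test, R 4.3.3) with protocol as a covariate, or library as a block within libraries. Adjusted p-values are Benjamini-Hochberg values over all genes, called at 0.05. DESeq2 1.42.0 was an alternative, and the fits were tested on simulated data. Shares were compared by exact two-sided permutation within protocol, on the difference within each protocol that held both groups, averaged over protocols (Python 3.11.15, numpy 2.4.6, pandas 2.3.3, scipy 1.17.1; plots with matplotlib 3.10.9). Intervals are exact 95% intervals, binomial for shares and Poisson for CPM, and cover counting error only. STOP entered the comparisons within libraries but not those of days. Named genes are the members, up to 4 called genes of a list by absolute fold change, the 10 genes most like Clec4f and the 5 most like Timd4; other genes named were chosen after their values were seen. The interaction with protocol, the class with Clec4f read after thinning and co-detection without cells of another type were added after seeing the data.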

Additional observations from a re-analysis of the deposited data

Results flagged for a closer look

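Spic was detected in 3.27% of thinned C1q-positive cells of D9 B, while the other 5 progression libraries lay between 9.20% and 10.99%, so that its gap to the next library was 0.769 of the whole range. It was the 1 library that stood apart in 60 groups of 4 or 6 libraries looked at, and chance gives about 1 in 20 such groups.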

How the results depend on the processing

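Depth differs between libraries and 2 libraries stand for untreated liver, so exact tests without a D0 library cannot pass, and few of the D0 B cells held Clec4f. Days could not be compared in pairs because the labels do not link libraries of different days. The 2 libraries of a day differ in protocol, which is a term in the fits. Comparisons of cell classes were paired within a library. The cause of the changes below was not tested, except that a fit within 1 protocol or without 1 library has fewer samples.

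The Timd4 share of Clec4f-positive cells differed by -15.0 points without thinning and by -15.0 without cells of another type, neither past the threshold, and by -21.8 to -13.6 with 1 library left out. Without thinning the Nr1h3 detection difference between D0 and diet turned to 0.395 points. With 1 library left out, detection differences ran from -33.8 (without D0 B) to -0.193 points (without D0 A) for Clec4f, -30.8 to 1.002 for Vsig4, -20.2 to -2.32 for Timd4, -20.5 to -2.98 for Nr1h3 and -26.4 to -2.75 for C6, with the same libraries left out at each end. Members past the detection threshold between D0 and diet numbered 0 to 4 with 1 library left out (0 without D0 A or D0 B). From onset to progression they numbered 5 without thinning, 4 when thinned to 3000 UMIs, 3 without cells of another type and 0 to 2 with 1 library left out. The share of all genes past that threshold was not computed for these settings.

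In C1q-positive cells, genes called between D0 and diet numbered 379 by edgeR, 1058 by DESeq2, 820 with no filter on low counts, 146 within protocol A, 1139 within protocol B, 74 with no term for protocol and 113 (without D5 A) to 1326 (without D0 A) with 1 library left out. Members called were 4, 3 and 0 by DESeq2, with no filter and with no term for protocol, and 0 to 2 with 1 library left out. From onset to progression 3 genes were called, 263 by DESeq2, 207 with no filter, 6 with at least 10 C1q UMIs, 24 without cells of another type, 0 within either protocol or with no term for protocol, and 2 to 6 with 1 library left out, and 1 member by DESeq2 and 1 with no filter.

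In Clec4f-positive cells, genes called between D0 and diet numbered 131, then 533 by DESeq2, 872 with no filter, 293 without cells of another type, 210 with 1 Clec4f UMI, 74 with 5, 28 within protocol A, 5 within protocol B, 33 with no term for protocol and 2 (without D0 A) to 169 (without D25 B) with 1 library left out. Members called were 4 by DESeq2, 5 with no filter, 1 with at least 10 C1q UMIs, 0 with at least 3000 UMIs per cell, with 5 Clec4f UMIs, within either protocol or with no term for protocol, and 0 to 2 with 1 library left out. From onset to progression 8 genes were called, 133 by DESeq2, 690 with no filter, 3 with at least 3000 UMIs, 5 with 1 Clec4f UMI, 4 with 5, 0 within either protocol or with no term, and 0 to 34 with 1 library left out, and 1 member by DESeq2 and 2 with no filter. Genes called between Timd4-positive and Timd4-negative cells went from 2262 to 443 without cells of another type and 746 with 5 Clec4f UMIs. The 9 members called between Clec4f-positive and Clec4f-negative cells and the 8 between Timd4-positive and Timd4-negative cells were called with every library left out in turn, although Folr2 and Id3 of the 8 were not called without cells of another type or with 5 Clec4f UMIs.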
